A study of Eriocheir sinensis with 6 samples.

Results

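The regions described here are the accessible chromatin regions of crab muscle that were called in 3 of 3 libraries and lie on assembled sequences on which the expression table of the same study lists no gene. The peak intervals of Mu_E_1, Mu_E_2 and Mu_E_3 were merged wherever they overlapped by at least 1 bp, and a merged region was kept as shared when a peak of every library touched it. This gave 29787 shared regions, of which 3812, or 12.8%, lay on sequences without a listed gene. A further 22674 lay on the 72 sequences whose names begin with CM, and 3301 lay on other sequences that do carry a listed gene. Width, fold enrichment, summits and read pileup did not enter this choice directly. They are not free of it, since every library needed a peak that passed the caller's threshold, and wide peaks overlap more readily. Their comparisons therefore describe shared regions only.

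The libraries come from walking-leg muscle of the Chinese mitten crab, *Eriocheir sinensis*. The crabs were juvenile males of wild-type genotype, untreated and in the molt period, when the old shell is shed. Each crab gave 1 ATAC-seq library and 1 RNA-seq library, so there were 3 libraries of each kind, 1 condition and no other group. The sample titles name the stage E and the series text names it D, and the E of the titles is used here. Genes carry only prediction identifiers in the expression table, so the muscle label was not checked against marker genes.

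In ATAC-seq a transposase inserts adapters where DNA is not wrapped tightly into chromatin, and sites with many insertions are called as peaks. A summit is the position inside a peak where the reads pile up highest, and a wide peak can hold several. Fold enrichment is the pileup at the summit over the background the caller expects there. Promoters and enhancers are the best known sources of such peaks. An assembly of a genome usually leaves many short sequences that could not be joined to a chromosome, and repeated DNA is a frequent reason. Names that begin with CM are those of chromosome records, and the names of all sequences described here begin with JACDRO, the form used for unplaced sequences of a whole-genome assembly. The files hold no base sequence, so none is shown.

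Before sharing was asked for, merging gave 7423 regions on sequences without a listed gene, and the 3812 shared ones were 51.4% of them. The same percentage was 42.3% on CM sequences, 46.7% on other sequences with a listed gene and 43.8% over all 68059 merged regions. On the sequences without a listed gene, 1438 merged regions were touched by 2 libraries and 2173 by 1 library. The peaks on these sequences numbered 6319 in Mu_E_1, 5049 in Mu_E_2 and 5930 in Mu_E_3. They were 12.0%, 11.3% and 11.9% of each library's peaks, a narrow range for lists of 44610 to 52473 peaks. With the stricter q-value of 1e-05, 2559 of the 3812 members, or 67.1%, had a passing summit in each library, against 74.2% of the shared CM regions. This q-value was reached in no library by 177 of the 3812 members. The same held for 765 of the 22674 shared CM regions and for 179 of the 3301 on other sequences with a listed gene.

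The 3812 members were spread over 1341 sequences, and 1871 sequences without a listed gene had a peak in at least 1 library. A sequence with a member held 2 of them at the median and 2.84 on average. Exactly 1 member was found on 552 sequences, 2 on 279, 3 to 5 on 338, 6 to 9 on 133 and 10 or more on 39. The 39 richest sequences held 501 members, and the 10 richest held 169, or 4.43% of all. Most members thus lay outside the richest sequences. A CM sequence held between 117 and 967 shared regions, with a median of 290.

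Sequence lengths are not in the files, so the largest coordinate listed for a peak was taken as the extent of a sequence, which is a lower bound of its length. The extent of a sequence with a member was 15.98 kb at the median, against 15410 kb for a CM sequence. The number of members followed the extent in part, with a Spearman correlation of 0.53 over the 1341 sequences. This is a description, since the members themselves help to set the extent. The 204 sequences with an extent under 5 kb held 269 members, at most 5 on one sequence. The 586 sequences of 5 to 20 kb held 1160, the 388 sequences of 20 to 50 kb held 1383, and the 163 longer ones held 1000. The members covered 6.70% of the listed extent of the sequences without a listed gene that have a peak. The shared regions covered 1.39% of the extent of the CM sequences. Counted per Mb there were 89.9 members and 20.1 shared CM regions. Other sequences with a listed gene were much nearer to the members, with 71.1 shared regions per Mb and 5.47% of their extent covered. Sequences without any peak are not counted and extents are lower bounds, so the density of members is an upper estimate.

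A second count set CM pieces of a fixed size beside member sequences of a similar listed extent. CM sequences were cut into pieces of 20 kb, and 13866 pieces held at least 1 shared region, 1.64 on average. The 526 member sequences with an extent of 10 to 30 kb held 2.56 members on average. A single shared region was found on 33.3% of these sequences and on 61.4% of the CM pieces. This cutting was chosen with the values known. The extents are lower bounds of length that the members help to set, so the stretches may not be of like size.

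**Figure D1:**
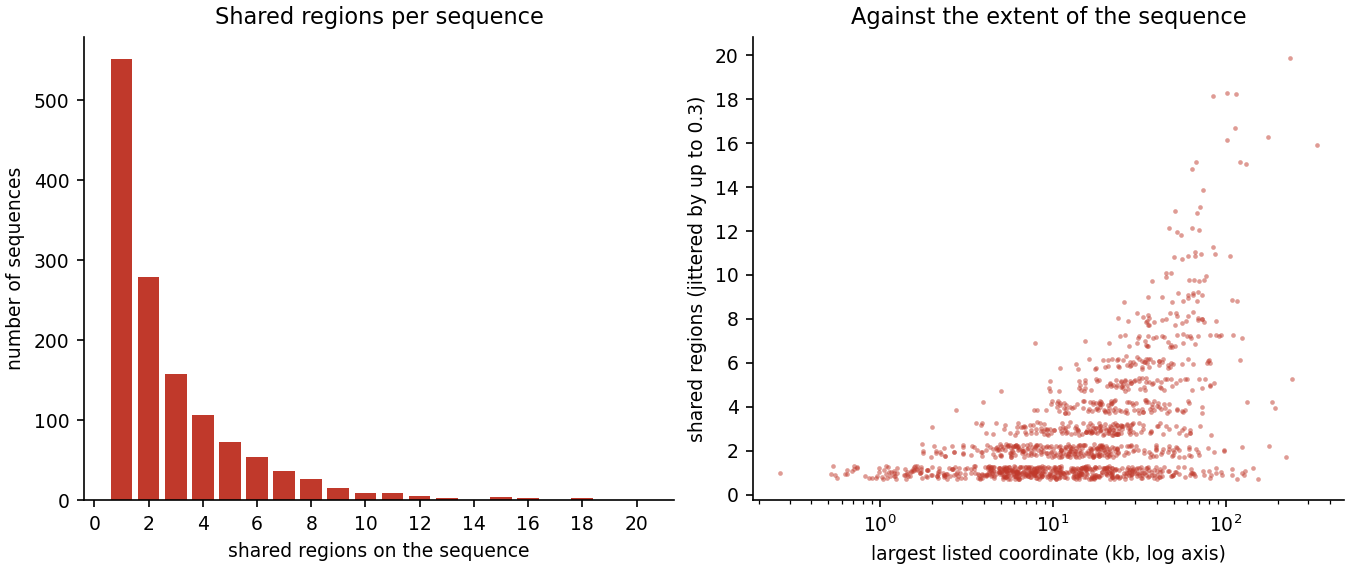
Shared regions on the 1341 sequences without a listed gene that hold at least 1. The left panel counts sequences (y axis) by their number of shared regions (x axis), and the right panel sets that number (y axis, jittered) against the largest listed coordinate of the sequence in kb (x axis, log scale), 1 point per sequence. The 552 sequences with a single region form the tallest bar, and the sequence with 20 regions has one of the largest extents.

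The sequence with the most members was JACDRO010001024.1, with 20 between positions 10343 and 234113. Its peaks numbered 41 in Mu_E_1, 34 in Mu_E_2 and 33 in Mu_E_3. Its members ran from 240 to 3303 bp in width and from 2.38 to 11.9 in mean fold enrichment, and the gaps between them from 258 to 49455 bp. JACDRO010000719.1, JACDRO010001039.1 and JACDRO010003272.1 held 18 members each, over extents of 101.9, 84.4 and 115.2 kb. On JACDRO010001039.1 the members covered 15.8% of the extent, the highest share of the 5 richest sequences, and their mean fold enrichment was moderate, with a median of 3.69. JACDRO010003256.1 held 17 members, the first of them only at position 25980. The median gap between members on these 5 sequences was 3336 to 5734 bp, close to or above that of all members, 3278 bp.

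Many members lay near the low end of their sequence. The part of sequence length in this was not tested. Of the 3812 members, 280 started within 1 kb of base 1, or 7.35% (95% Wilson interval 6.56 to 8.22%). On other sequences with a listed gene the share was 2.48% (2.01 to 3.07%), and on CM sequences it was 0.0221% (0.00942 to 0.0516%), or 5 regions. Exactly at base 1, the first base of the sequence, 37 members began, against 15 shared regions on other sequences with a listed gene and 0 on CM sequences. Such a region is cut by the end of the assembled sequence, and its true width is not known. The median start of a member was at 13420 bp, and the start farthest from base 1 was at position 316990.

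The members were regions of ordinary size. Merged over the libraries, they were 206 to 3460 bp wide with a median of 625 bp, against 602 bp for CM regions and 654 bp for regions on other sequences with a listed gene. Widths of 2 kb or more were found for 75 members, or 1.97%, and for 0.657% of the CM regions. On other sequences with a listed gene the share was 1.88%, close to that of the members. Within a single library, the widths of its peaks were added where several lay in 1 region. In the members these widths had medians of 541, 446 and 509 bp in Mu_E_1, Mu_E_2 and Mu_E_3. The CM medians were 473, 439 and 508 bp. The members were thus 1.14 times as wide in Mu_E_1, 1.02 times in Mu_E_2 and 1.00 times in Mu_E_3, a mean log2 ratio of 0.07 ± 0.10 (SD, n = 3 libraries). The ranges of the libraries overlap, and most of the mean comes from Mu_E_1. With Mu_E_1 left out of the merging, 4047 members were shared by Mu_E_2 and Mu_E_3, and the mean ratio in that set was 1.03.

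The widest member, on JACDRO010000882.1 from 6862 to 10321, had added peak widths of 2893, 3014 and 3460 bp in the 3 libraries and held 6, 6 and 8 summits. It was the only member of its sequence. The next, on JACDRO010000388.1 from 23 to 3362, filled nearly the whole listed extent of that sequence, 3.362 kb. With 6, 9 and 5 summits in the libraries, it also had the highest summit number of all members, 20 in sum, together with the widest member. Its fold enrichment was 4.11, 3.14 and 4.01, below the median of the members in each library, so its width did not come with a high summit. The other 3 of the 5 widest were on JACDRO010000756.1 from 11052 to 14379, on JACDRO010001024.1 from 39380 to 42682 and on JACDRO010000876.1 from 51702 to 54692. In them the highest fold enrichment of a library was between 2.33 and 5.31.

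The number of summits was close to that of the CM regions. On average a member held 1.64, 1.49 and 1.61 summits in the 3 libraries, and a CM region 1.54, 1.46 and 1.59. The difference was 0.10, 0.03 and 0.02 summits, above 0 in 3 of 3 libraries, with a mean of 0.050 ± 0.044 (SD, n = 3, exact sign-flip p = 0.25, adjusted 0.3). Among regions at least 5 kb from both listed ends of their sequence it was 0.067, -0.018 and -0.027, so the direction held in Mu_E_1 alone, and the width ratio there was 1.11, 0.980 and 0.969. A single summit in every library was found for 1842 members, or 48.3%, and more than 1 summit in every library for 934, or 24.5%. The same shares were 49.5% and 23.2% for the CM regions. Where a peak had several summits, neighbouring ones were 356, 355 and 357 bp apart at the median in the members of the 3 libraries, and 311, 307 and 322 bp apart in the CM regions. On other sequences with a listed gene they were 344, 338 and 355.5 bp apart, so a distance above that of the CM regions was not particular to the members. The middle 50% of these distances ran from about 281 to 453 bp in the members of Mu_E_1 and from 253 to 398 bp in its CM regions. The members of Mu_E_1 had 2225 such distances.

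Fold enrichment ran from 1.55 to 40.4 over the members and libraries. The medians of Mu_E_1, Mu_E_2 and Mu_E_3 were 4.92, 4.65 and 4.59, on average 4.72 ± 0.17 (SD, n = 3 libraries). The CM medians were 4.92, 5.19 and 5.17, a mean of 5.09 ± 0.15, and the medians on other sequences with a listed gene were 4.45, 4.34 and 4.19. In Mu_E_1 the members and the CM regions had the same median, and in the other libraries the members were at 0.895 and 0.889 times the CM value. An exact two-sided sign-flip test over the 3 libraries gave p = 0.5, or 0.5 after adjustment over 6 comparisons. With 3 libraries it cannot give less than 0.25. A fold enrichment of 10 or more was reached by 369 members in Mu_E_1 and by 267 in each of Mu_E_2 and Mu_E_3. That was 9.68%, 7.0% and 7.0% of the members, against 7.47%, 9.14% and 9.13% of the CM regions. The order of the classes by this share thus turned around between Mu_E_1 and the other libraries.

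The 5 strongest members were narrow, had a single summit in each library and were alike between libraries. The highest, on JACDRO010000808.1 from 5270 to 5720, had fold enrichments of 40.0, 38.3 and 40.4 in Mu_E_1, Mu_E_2 and Mu_E_3, on average 39.6 ± 1.07 (SD, n = 3). Its summits lay at 5517, 5515 and 5518, within 3 bp. The second, on JACDRO010000923.1 from 4654 to 4987, had 35.6, 32.9 and 34.4, with summits at 4809, 4815 and 4810. Both regions rose far above the median member, and the values of the libraries lay close together beside that distance.

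The next strongest pair of members shared 1 sequence, JACDRO010000135.1. The first of them, from 4287 to 4637, had a fold enrichment of 32.4, 30.6 and 34.5, and the second, from 18383 to 18773, had 30.8, 32.0 and 33.1. The ranges of these 2 regions overlap, so they did not differ beyond the spread between libraries. The last of the 5, on JACDRO010002605.1 from 3043 to 3559, had 30.4, 29.7 and 28.2. At the other end, the member with the lowest mean was on JACDRO010001294.1 from 34066 to 34490, at 1.58, 1.73 and 1.55, and lay among 12 members of its sequence.

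The deposited fold enrichment and p-value of a summit together fix the 2 numbers they were made from, the pileup of reads at the summit and the local background. A whole-number pileup was recovered for at least 99.96% of the summits of each library and for all summits on sequences without a listed gene. In 99.99% of the cases above a common minimum, the local background came in steps of 0.02, which is what 1 read contributes when it is extended to 200 bp and averaged over 10 kb. The minima of Mu_E_1, Mu_E_2 and Mu_E_3 were 3.27, 2.23 and 3.26, and this minimum is the genome-wide background. With no control library both come from the reads of the same library, the reads of the region included. The genome-wide value scales with the depth of a library, so Mu_E_2 was the shallowest. Pileups and local backgrounds were divided by it to set libraries side by side.

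The pileup at the strongest summit of a member had medians of 39, 25 and 33 reads in Mu_E_1, Mu_E_2 and Mu_E_3. In the CM regions it was 40, 33 and 45 reads. The members were at 0.975, 0.758 and 0.733 times the CM pileup, below it in 3 of 3 libraries, with a mean log2 ratio of -0.29 ± 0.22 (SD, n = 3, exact sign-flip p = 0.25, adjusted 0.3). Relative to the genome-wide background the pileup was 11.9, 11.2 and 10.1 in the members and 12.2, 14.8 and 13.8 in the CM regions. Regions on other sequences with a listed gene gave 11.6, 11.2 and 9.83, close to the members in each library. The members were at 1.03, 1 and 1.03 times their value, so they were equal in Mu_E_2 and slightly higher in the other libraries.

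The local background at the members was 2.01, 1.84 and 1.70 times the genome-wide background in Mu_E_1, Mu_E_2 and Mu_E_3. At the CM regions it was 2.09, 2.31 and 2.24 times, a member-to-CM ratio of 0.959, 0.798 and 0.759 (exact sign-flip p = 0.25, adjusted 0.3). Against the CM regions more than 2 kb from any listed gene, the ratio in Mu_E_1 was 1.03 for both the local background and the pileup, above 1, and it stayed below 1 in the other libraries. A local background no higher than the genome-wide one was found for 22.9%, 26.3% and 27.4% of the members and for 13.7%, 13.2% and 14.8% of the CM regions. These ranges do not overlap. On other sequences with a listed gene the share was 15.4%, 19.0% and 22.2%, between the members and the CM regions in each library. For 784 members, or 20.6%, the local background was no higher than the genome-wide one in all 3 libraries. The same held for 9.03% of the CM regions and for 13.2% of the regions on other sequences with a listed gene.

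Fold enrichment and pileup did not always go together in the named members. The strongest member, on JACDRO010000808.1 from 5270 to 5720, had a pileup of 1104, 551 and 806 reads over a local background of 26.6, 13.4 and 19.0 reads, so that both were far above the medians of all members. On JACDRO010000923.1 the pileup was 297, 160 and 211 reads over 7.38, 3.9 and 5.16, and this sequence ends, as far as listed, at the last base of the member. The region of JACDRO010000135.1 from 4287 to 4637 came to a fold enrichment of the same order from 172, 124 and 179 reads over a background of 4.34, 3.08 and 4.22, little above the genome-wide level. The member with the lowest fold enrichment, on JACDRO010001294.1, was not poor in reads. Its pileup was 93, 63 and 77 reads, above the median of the members in each library, over a local background of 58.4, 35.9 and 49.2.

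This background moved with the extent of the sequence. On sequences with an extent under 5 kb, 49.1%, 53.5% and 59.1% of the members were at the genome-wide background, and on those over 50 kb 17.3%, 20.6% and 20.6%. The fold enrichment moved the other way, with medians of 6.56, 5.89 and 5.88 on the shortest sequences and 4.55, 4.34 and 4.34 on the longest. The pileup moved less, and it was higher on the longest sequences in each library. It was 11.01, 10.3 and 8.91 times the genome-wide background on the shortest sequences and 12.2, 11.7 and 10.1 times on the longest. A window of 10 kb can reach past the end of a short sequence. True lengths are not known, and the part of the window in these values was not tested. Among the 1665 members at least 5 kb from both listed ends, a choice made with the values known, the local background was 0.994 times that of the CM regions on average, with 1.13, 0.946 and 0.921 in the libraries, and the fold enrichment 0.842 times, below 1 in 3 of 3 libraries (exact sign-flip p = 0.25, n = 3).

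**Figure D2:**
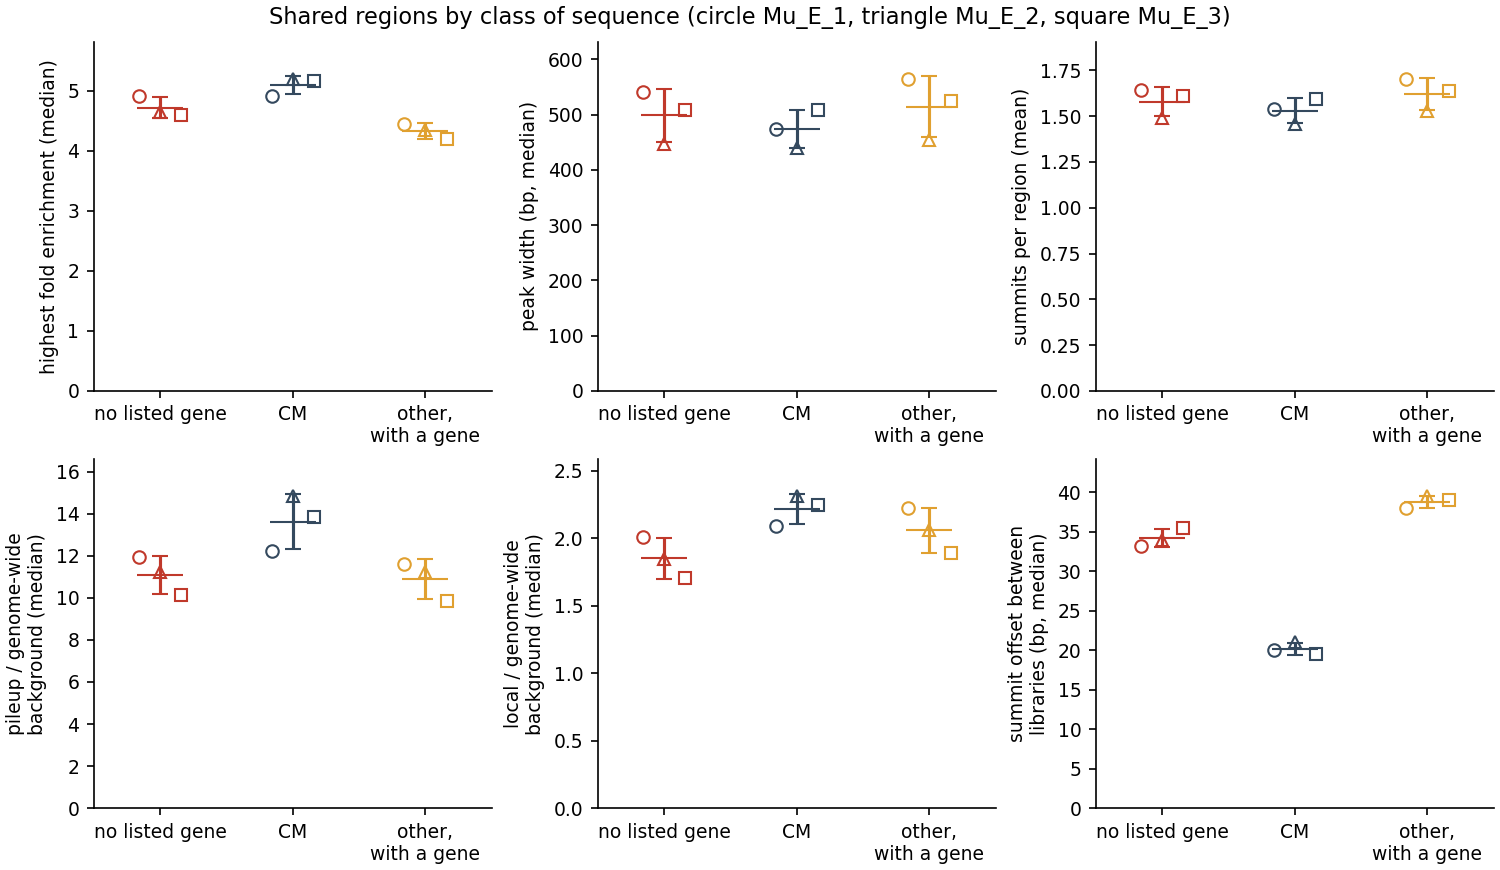
Values of the shared regions on sequences without a listed gene, on CM sequences and on other sequences with a listed gene. Each open symbol is 1 library (circle Mu_E_1, triangle Mu_E_2, square Mu_E_3), the bar is the mean and the whiskers the SD over 3 libraries, and every y axis starts at 0. For the summit offset the 3 libraries share their pairs, so its whiskers understate the spread. Its values were 33.3 to 35.5 bp for sequences without a listed gene and 19.5 to 21 bp for CM sequences.

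The libraries agreed less closely on the position of the summit in the members than in the CM regions. The strongest summit of a library was compared with the nearest summit of each of the other libraries. The mean distance of a region had medians of 33.3, 34.0 and 35.5 bp in Mu_E_1, Mu_E_2 and Mu_E_3. In the CM regions it was 20, 21 and 19.5 bp, so the distance was 1.66, 1.62 and 1.82 times as long in the members. Each pair of libraries enters the values of both libraries, so these 3 ratios are not independent and are given without a test. With 1 library left out, which leaves a single pair, the ratio was 1.49 to 1.62. A distance of at most 50 bp was found for 64.7%, 63.2% and 63.9% of the members and for 77.9%, 76.8% and 77.8% of the CM regions. On other sequences with a listed gene the median distances were 38.0, 39.5 and 39.0 bp, longer than in the members in every library. Against the 9303 CM regions more than 2 kb from any listed gene, the distance in the members was 1.4998 times as long.

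Neighbouring members lay closer together than neighbouring CM regions over whole sequences, and the order of the classes turned when CM sequences were cut into short pieces. The median gap between neighbours was 3278 bp over 2471 gaps of members and 12640 bp over 22602 gaps of CM regions, a ratio of 0.259. On other sequences with a listed gene it was 5454 bp. A gap cannot be longer than its sequence. The median extent was 15.98 kb for sequences with a member and 15410 kb for CM sequences. The part of this limit in the gap ratio was not tested. Of the gaps between members, 27.5% were under 1 kb and 84.6% at most 10 kb, against 13.6% and 44.7% of the CM gaps. Among gaps of at most 10 kb, the medians were 2223 and 2955 bp, a ratio of 0.752. With the CM sequences cut into pieces of 20 kb, the median CM gap was 2522 bp and the ratio turned to 1.3. Member sequences of every extent stayed whole in that comparison. Cutting drops each CM gap that crosses the edge of a piece, which left 8808 of the 22602 gaps and favours short ones. The regions are merged over the libraries, so these gaps have no replicate and no test was run.

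The gaps were not evenly spread. Of the members' gaps, 12.99% were between 1 and 2 kb and 7.28% between 2 and 3 kb. The share then went up again to 8.66% between 4 and 5 kb and down to 4.82% between 6 and 7 kb. A similar second maximum was found in the CM gaps, with 2.94% between 3 and 4 kb and 4.05% between 5 and 6 kb. The closest pair of members lay 5 bp apart on JACDRO010001099.1, at positions 3192 to 3637 and 3643 to 4836. The fold enrichment of the first was 5.74, 4.24 and 4.47 and that of the second 7.23, 8.19 and 8.23, higher in every library.

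**Figure D3:**
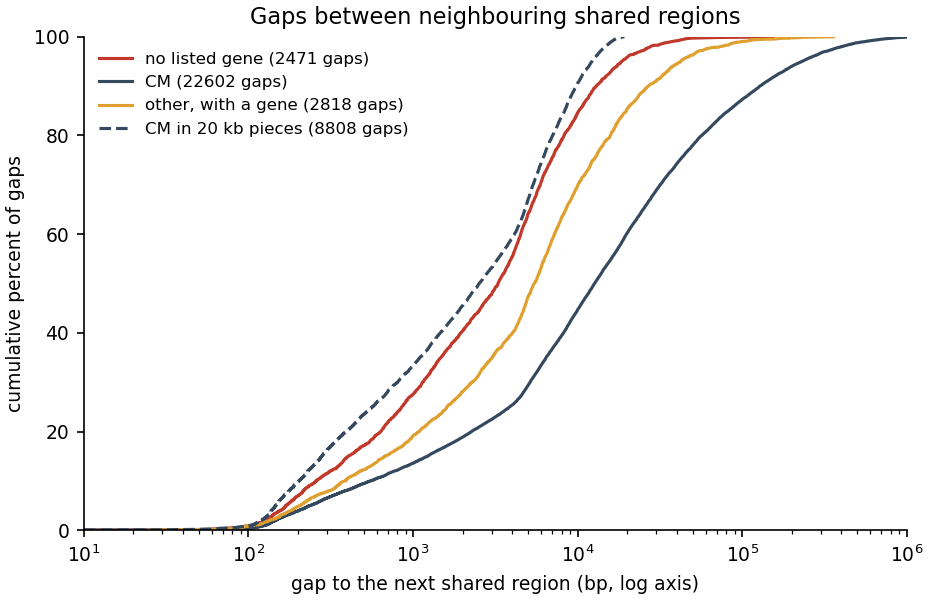
Cumulative percent of gaps (y axis) by the gap in bp between neighbouring shared regions of the same sequence (x axis, log scale). Solid lines are the classes of sequences and the dashed line is the CM sequences cut into pieces of 20 kb. The line of the sequences without a listed gene crosses 50% at 3278 bp, to the left of the CM line at 12640 bp and to the right of the dashed line at 2522 bp.

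The members also differed from the CM regions in how the libraries stood to each other. Within a member, the pileup of Mu_E_3 over its genome-wide background was lower than that of Mu_E_1 in 75.8% of the 3812 members, with a median log2 ratio of -0.26. In the CM regions it was lower in 28.1%, with a median of 0.21, over 22673 regions with a recovered pileup in each library. The difference of -0.48 between the medians does not depend on how the libraries are scaled, since any scaling moves both alike. The pileup of Mu_E_2 stood to that of Mu_E_1 at -0.10 in the members and 0.24 in the CM regions. Between Mu_E_3 and Mu_E_2 the medians were closer, at -0.16 and -0.07. Relative to the CM regions, Mu_E_1 thus had more reads at the members than the other libraries had. The same held for the local background, whose log2 ratio of Mu_E_3 to Mu_E_1 was -0.18 in the members and 0.13 in the CM regions.

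This contrast was not tested, because it sets single libraries against each other. None of the 72 CM sequences had a median below the -0.26 of the members. These medians ran from -0.22 to 0.31 with a median of 0.23, and 3 were below 0, which were CM024130.1 at -0.22, CM024137.1 at -0.15 and CM024114.1 at -0.06. Regions on other sequences with a listed gene had a median of -0.25, so the contrast was not particular to sequences without a listed gene. It was -0.43 when the members were set against CM regions more than 2 kb from any listed gene.

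Within the members the contrast was not even. The name of each sequence ends in a running number, and the following groups of numbers were chosen after the values were seen. On the 1167 sequences numbered under 3200 the median of Mu_E_3 over Mu_E_1 was -0.28 on the log2 scale, over 3478 members. On the 127 sequences numbered from 3400 to below 4200 it was 0.25 over 185 members. Those 185 members were weak, with a median pileup of 20, 14 and 24 reads in the 3 libraries, and 66.5%, 72.4% and 50.8% of them were at the genome-wide background. They were also sparse, with 1.46 members per sequence on a median extent of 28.2 kb. The 23 members on sequences numbered from 4200 were weak too, with a median pileup of 24, 17 and 19 reads. Of these, 69.6%, 87.0% and 78.3% were at the genome-wide background, yet their median ratio was -0.36. A positive ratio thus did not go with weak members in general. The 126 members numbered from 3200 to below 3400 had a median ratio of -0.19.

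**Figure D4:**
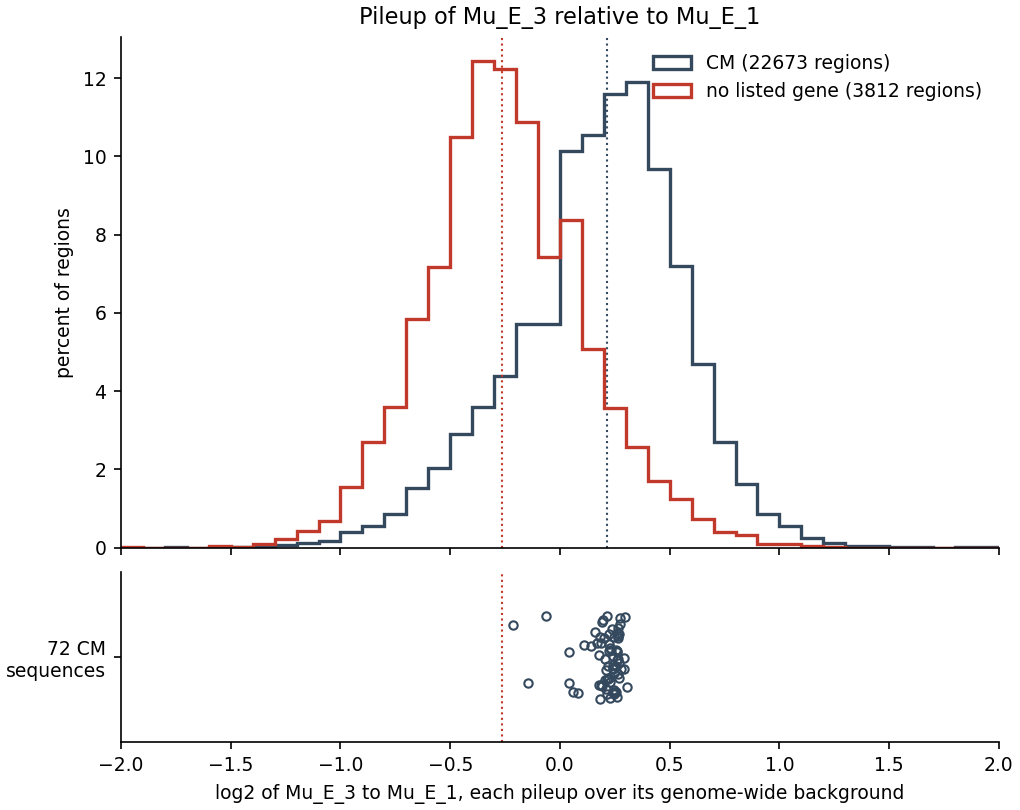
Log2 ratio of the pileup of Mu_E_3 to that of Mu_E_1, each divided by the genome-wide background of its library (x axis). The upper panel shows the percent of regions per bin of 0.1 on the y axis, for sequences without a listed gene and for CM sequences, with dotted lines at the medians of -0.26 and 0.21. The lower panel shows the median of each of the 72 CM sequences (vertical position random), all to the right of the dotted median of the sequences without a listed gene.

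Across regions, the libraries ranked the members much alike. The Spearman correlation of fold enrichment over the 3812 members was 0.83 for Mu_E_1 with Mu_E_2, 0.85 for Mu_E_1 with Mu_E_3 and 0.81 for Mu_E_2 with Mu_E_3. Over the CM regions it was 0.77, 0.87 and 0.78. These are descriptions over regions that share a library, and no p-value is given.

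A local background of at least 10 times the genome-wide one was found at 5.82%, 4.54% and 4.41% of the members in Mu_E_1, Mu_E_2 and Mu_E_3. It was found at 5.32%, 6.36% and 8.03% of the CM regions and at 5.12%, 4.54% and 3.79% of the regions on other sequences with a listed gene. A high background was thus not particular to the members, and in 2 of 3 libraries it was less common in them than in the CM regions. By sequence, a small number stood out. The median local background of the members was at least 10 times the genome-wide one in all 3 libraries on 27 of the 1341 sequences, which held 130 members. The longest run of such sequences by running number, with steps of at most 5, held 8 of the 27 and went from number 751 to 767. All 17 sequences of that stretch held members, 75 in all, and none has a listed gene. The stretch was singled out by these values, so what follows describes it. The median local background of the 75 members was 14.4, 15.5 and 12.4 times the genome-wide one in the 3 libraries, against 1.96, 1.79 and 1.67 times for the other 3737 members. Their pileup was high as well, at 233, 138 and 182 reads. Their fold enrichment was ordinary, with medians of 4.93, 4.42 and 4.70.

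The highest medians were those of JACDRO010000759.1, at 50.4, 42.2 and 40.7 times the genome-wide background, and of JACDRO010000757.1, at 49.4, 42.8 and 39.8 times. These sequences held 6 and 5 members. In contrast, the single member of JACDRO010000765.1 was at the genome-wide background in every library, and that of JACDRO010000753.1 was at 2.75, 2.55 and 2.51 times, so the stretch was not uniform. The latter had a fold enrichment of 20.4, 20.4 and 18.8. Outside the stretch, the highest sequence was JACDRO010000215.1, with 35.4, 39.6 and 36.7 times. The 27 sequences included 3 of those that hold the 5 widest members. JACDRO010000756.1 was at 34.0, 29.4 and 29.1 times, JACDRO010000882.1 at 16.1, 14.3 and 13.1 times and JACDRO010000876.1 at 12.3, 11.6 and 10.3 times. The copy number of these sequences in the genome was not measured, and its part in the background was not tested.

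**Figure D5:**
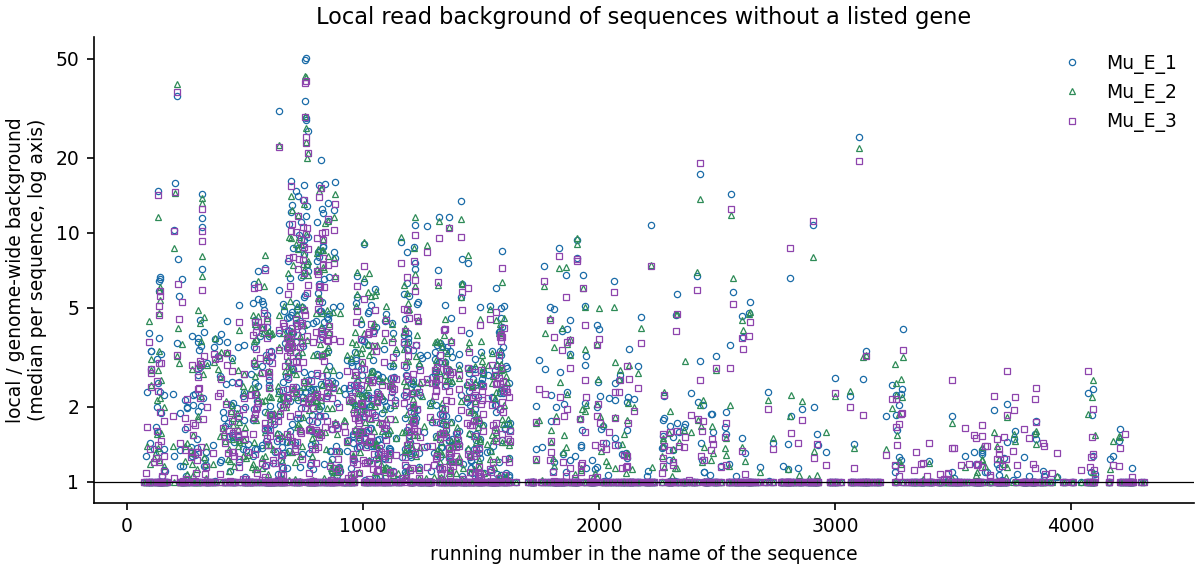
Local background over the genome-wide background (y axis, log scale) as the median of the members of a sequence, against the running number in the name of the sequence (x axis), for 1341 sequences in each of 3 libraries (circle Mu_E_1, triangle Mu_E_2, square Mu_E_3). Sequences at the line of 1 have no raised background, and the highest points, at 50.4 and 49.4 in Mu_E_1, belong to JACDRO010000759.1 and JACDRO010000757.1.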

How the data were processed

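ATAC-seq was performed on muscle of 3 crabs. After trimming by skewer and alignment by BWA, the authors removed mitochondrial and improperly paired reads and ran MACS2 on each library, with duplicates kept. A genome build name, an annotation version and a transposase shift are not given in the sources used here. The deposited lists give positions, a score (10 times −log10 q, used no further), fold enrichment (a ratio of pileup to background) and −log10 p-values and q-values. The deposited FPKM table was made by the authors with HISAT2 2.0.5 and featureCounts 1.5.0-p3. Only its 28671 gene positions were used, since no expression value enters a comparison here.

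Intervals were merged and classified in Python (3.11.15) by means of pandas (2.3.3) and numpy (2.4.6), tested in scipy (1.17.1) and drawn in matplotlib (3.10.9). Positions are given from 1. Pileup k and background b were solved from fold = (k + 1)/(b + 1) and the Poisson p of more than k reads, with a mismatch of at most 5% of the step between neighbouring k. Merging and solving were tested on simulated data. Each library gave 1 median per class (the mean for summits), and the log2 ratios of 3 libraries entered an exact sign-flip test. With 3 libraries its p is 0.25 whenever the 3 values have the same sign, whatever their size. It therefore does not measure the spread between these crabs. P-values were adjusted by Benjamini-Hochberg over 6 comparisons. Wilson intervals cover counting error only. The test of the summit distance is not reported, since its 3 values share pairs of libraries. Read totals of the ATAC-seq libraries were not used here. Named were the 5 sequences with the most members, the 5 strongest, the 5 widest, the member with the most summits and the closest pair. Other sequences were named with their values known. The members and lists were chosen with earlier results of these data known. Alternatives covered the peak threshold, the overlap, the merging distance, each library left out, the genes that define the class, the reference class and the weight of sequences.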

Additional observations from a re-analysis of the deposited data

How the results depend on the processing

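Over the alternatives other than the reference class, the mean of each of the 6 comparisons with CM regions kept its direction, but single libraries did not. At least 5 kb from both listed ends, the mean width ratio was 1.02 and the mean summit difference 0.0074, each with 2 of 3 libraries turned. Against other sequences with a listed gene, 5 turned: the width ratio was 0.970, the fold enrichment ratio 1.09, the summit difference -0.042, the offset ratio 0.882 and the pileup ratio 1.02. The gap ratio was 0.210 with an overlap of 50% of both peaks, 0.294 between centres and 0.752 for gaps of 10 kb or less, and it turned to 1.3 with CM sequences in 20 kb pieces. The members were 11.9% of the shared regions at a q-value of 1e-05 or less and 15.5% when only annotated genes defined the class, and from 12.3% to 12.8% with 1 library left out. Within 500 bp and 5 kb of base 1 lay 5.01% and 23.8% of the members. The number of members ran from 2559 to 4765 over 7 alternatives. When each sequence counted once, the local background ratio was 0.594 and the fold enrichment ratio 0.979. Without Mu_E_1 the fold enrichment ratio was 0.915, with both remaining libraries below 1. No paired analysis was possible because there is 1 group of crabs, and the numbers shared by ATAC-seq and RNA-seq libraries join assays that were not compared. The comparisons of classes of sequences were made within each library. Depth was read here from the genome-wide background, and a region below the threshold in the shallowest library, Mu_E_2, is not a member.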
